A study of Arabidopsis thaliana with 12 samples.

Results

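Long noncoding RNA (lncRNA) genes make transcripts that are long, often capped and polyadenylated like messenger RNA, and not annotated as coding for a protein. In plants such transcripts are known to act as precursors of small RNAs, as decoys that sequester a microRNA, and as antisense or neighbouring transcripts of protein-coding genes. Most are made at low levels and in few tissues. The genes described here are those annotated as lncRNA in the deposited gene table that had 10 or more counts in at least 3 of the 12 libraries. The rule gave 238 genes of the 3481 annotated lncRNA genes, out of 32833 genes in the table, and it left out 1 further gene that is not analysed here. No value from a comparison between groups entered the rule. A gene could still pass it through the libraries of a single group.

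The libraries were made from poly(A)-selected RNA of 7-day-old Arabidopsis thaliana seedlings in liquid culture, with 3 replicates in each of 4 groups. The first group was untreated Col-0, the wild type. The others carried tpst, a T-DNA insertion line in the Col-0 background that cannot sulfate tyrosines and so lacks active phytosulfokine (PSK), a secreted peptide hormone. One tpst group was left untreated, one was given 100 nM synthetic PSK for 5 h, and one was given 1 µM PSK for 5 h. Only 1 mutant line was used, each replicate was a pool of seedlings, and no Col-0 library received PSK. The untreated groups are labelled with a time of 0, although a mock with water is described for them, so it is open whether they were harvested together with the treated ones. TPST, the disrupted gene, was at 16.9 to 17.3 CPM (counts scaled to a common library size) in the Col-0 libraries and at 6.29 to 9.26 CPM in the 9 tpst libraries.

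Library totals ran from 17066292 to 24948416 counts. Between Col-0 and tpst the levels of root and shoot markers also differed. Summed over 10 root markers the level was 320 to 352 CPM in Col-0 and 156 to 168 CPM in untreated tpst. By the test described below, 8 of the 10 passed as higher in Col-0, against 14.6% of all genes tested. All 10 shoot markers passed as lower in Col-0, against 13.3% of all genes tested. They summed to 30496 to 32653 CPM in Col-0 and to 39537 to 40477 CPM in untreated tpst. Every marker of both lists was detected in every library. A lower share of a tissue and less RNA per cell cannot be told apart in such samples. In the 1 µM PSK libraries the 15 ribosomal RNA (rRNA) rows took 0.0532% to 0.0627% of the counts, against 0.212% to 0.349% in the other 9 libraries.

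Of the 3481 annotated lncRNA genes, 2240 had no count in any library and 1003 had counts but stayed below the minimum. The 238 genes passing it lay on all chromosomes, with 83 on chromosome 1, 39 on chromosome 2, 40 on chromosome 3, 39 on chromosome 4 and 37 on chromosome 5. Their median annotated exon length was 632.5 bases, against 319 bases for the lncRNA genes that did not pass and 1552 bases for protein-coding genes. A single exon was annotated for 141 of them. Their median GC content was 38.2%, against 41.1% for protein-coding genes. The longest reading frame with a start and a stop codon had a median of 46 codons and reached 188. The deposited gene names held a symbol for none of the 238. The RefSeq annotation of assembly TAIR10.1 gave the lncRNA class for all 238 and the same coordinates for 237.

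These genes were weakly expressed. Their median level over the 12 libraries was 1.20 FPKM, the count scaled by exon length and library total, and the middle 50 percent ran from 0.664 to 2.16 FPKM. Protein-coding genes passing the same minimum numbered 20098 and had a median of 8.00 FPKM. A mean below 1 FPKM was found for 99 of the 238 lncRNA genes and for 11.9% of those protein-coding genes. In raw counts, 85 of the 238 reached 10 counts in all 12 libraries, and the median gene had 184 counts over all of them. At the edge of the rule, the 22 genes with exactly 3 libraries of 10 or more counts had 55 to 104 counts in total, and the 34 lncRNA genes with exactly 2 such libraries had 44 to 105. The histogram of levels shows the offset between the 2 kinds of gene.

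**Figure D1:**
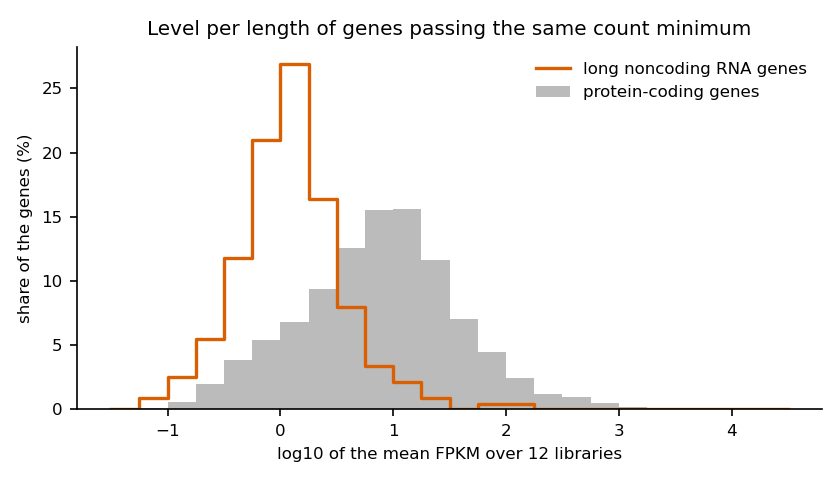
Share of genes (y axis, %) by log10 of the mean FPKM over 12 libraries (x axis) for the 238 lncRNA genes (line) and the 20098 protein-coding genes that pass the same count minimum (bars). The lncRNA genes centre near their median of 1.20 FPKM, and the protein-coding genes near 8.00 FPKM.

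All 238 genes together took 0.0429% to 0.0506% of a library's counts. The mean was 0.0493% ± 0.00114 (SD, n = 3) in Col-0 and 0.0473% ± 0.00151 in untreated tpst. It was 0.0453% ± 0.00191 with 100 nM PSK and 0.0439% ± 0.00110 with 1 µM PSK. A single gene, AT3G06355, supplied 7.33% to 16.0% of these counts. Without it the group means lay between 0.0400% and 0.0420%, and the SDs were 0.00101 to 0.00200.

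By level per length, 8 genes led the list. AT3G06355 had a mean of 107 FPKM and ranked 977 of 32833 genes in the table. AT1G07323, on chr1:17295588-17296007, had 68.1 FPKM, and its libraries ran from 22.9 to 34.0 CPM. AT1G08847 had 26.2 FPKM, AT1G07367 19.7, AT3G05945 17.6, AT2G24592 13.3, AT4G38932 12.6 and AT1G08757 12.5 FPKM. The remaining lncRNA genes were below these. AT1G08847, AT3G05945, AT2G24592 and AT4G38932 passed the test in no comparison, with log2 changes between -0.24 and 0.32. Their nearest protein-coding genes were DTX8, PMAT2, RSZ22A and AT4G38930, which encodes a ubiquitin fusion degradation family protein, and RSZ22A encodes a splicing factor.

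Most of these genes lay on top of a protein-coding gene. Of the 238, 148 (62.2%) overlapped their nearest protein-coding gene on the opposite strand, and 70 of the 238 lay wholly inside their neighbour. A further 41 had a neighbour on the same strand without overlap, 24 were convergent, 21 divergent, and 4 overlapped on the same strand. Of the 27628 protein-coding genes, 21.5% overlapped their own nearest protein-coding gene on opposite strands. Among the 86 lncRNA genes without overlap the nearest ends were a median of 754.5 bases apart, from 26 to 32370.

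Counts varied with that position. Exon bases shared with another gene on either strand made up a median of 14.0% of the exon length of the 238, and 161 of them shared some. Of the 557 lncRNA genes whose exons were entirely shared, 4 had any count, 24 in sum, and none passed the minimum. Of the 1568 lncRNA genes sharing no exon base, 585 (37.3%) had a count and 77 passed. Protein-coding genes showed the same relation, with any count in 4 of 349 entirely shared genes and in 86.0% of 19941 that shared none. Bases annotated to 2 genes, on either strand, thus gave almost no counts. FPKM values, scaled by the exon length, are therefore low estimates for genes of either kind that share exon bases. A value below for an overlapping pair describes the unshared exon bases, and without a stated strand setting, transcripts of the 2 strands cannot be told apart there.

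Of the 238 genes, 229 had enough counts to be tested among 20506 genes of all classes, by edgeR's quasi-likelihood test with Benjamini-Hochberg adjustment over all of them. The 9 others had 55 to 97 counts over all libraries. A gene was called changed at an adjusted p under 0.05. In all, 16 lncRNA genes were called in at least 1 of the 4 comparisons.

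The first comparison, Col-0 against untreated tpst, asks what the loss of tyrosine sulfation does without added PSK. Among the genes called, AT2G06995 was 6.22-fold higher in Col-0, and AT2G05914, AT1G07367 and AT1G07373 were 2.67, 2.44 and 1.82-fold lower. In all 14 of the 229 genes were called, 7 higher in Col-0 and 7 lower, which is 6.11% of them. Over all 20506 genes 27.9% were called, 14.6% higher and 13.3% lower. A called change of 2-fold or more was found for 7 of the 229 and for 6.43% of all genes. The median change was -0.10 on the log2 scale over the 229 genes and 0.00 over all genes. The estimates of these weakly expressed genes were wide, with a median standard error (SE) of 0.48 against 0.12 over all genes. With or without a call, a change of 2-fold or more was fitted for 27 of the 229 (11.8%) and for 7.74% of all genes. At an unadjusted p under 0.05 there were 31 lncRNA genes, or 13.5%, and 37.7% of all genes. The libraries of the 2 groups did not overlap for 43 of the 229, or 18.8%, against 39.8% of all genes.

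For both kinds of gene the share called was lowest below 1 CPM and highest at 10 CPM or more. Below a mean of 1 CPM 3 of 143 lncRNA genes were called, and 294 of 1656 protein-coding genes (17.8%). From 1 to 3 CPM the counts were 3 of 51 and 565 of 2187 (25.8%), and from 3 to 10 CPM 5 of 28 and 1015 of 4110 (24.7%). At 10 CPM or more 3 of 7 lncRNA genes and 3810 of 12062 protein-coding genes (31.6%) were called. The spread between replicates was somewhat larger for lncRNA genes at each level. Below 1 CPM the median biological coefficient of variation was 0.281 for lncRNA genes and 0.271 for protein-coding genes. It was 0.208 and 0.195 from 1 to 3 CPM, 0.131 and 0.121 from 3 to 10 CPM, and 0.0867 and 0.0684 at 10 CPM or more. The differences between the 2 kinds in the share called are a description and were not tested.

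**Figure D2:**
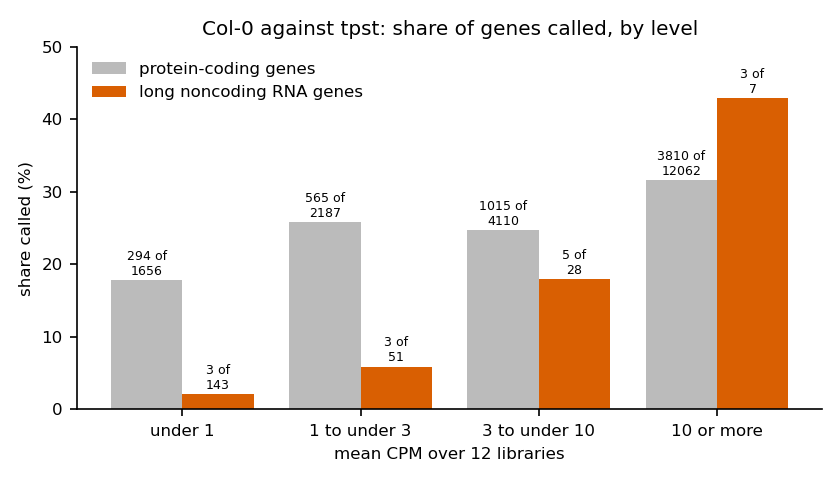
Share of genes called (y axis, %) in Col-0 against tpst, by mean CPM over 12 libraries (x axis), for protein-coding and lncRNA genes, with the number called of the number tested above each bar. Below 1 CPM 3 of 143 lncRNA genes and 294 of 1656 protein-coding genes were called.

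Among the genes lower in Col-0, 2 lie in 1 neighbourhood of chromosome 1. AT1G07367 spans chr1:17388989-17389500 on the plus strand with 2 exons, and no exon base of it is shared with another gene. Its level was 3.51, 4.31 and 6.0 CPM in Col-0 and 13.9, 9.44 and 10.8 CPM in untreated tpst. The groups did not overlap, and the change was -1.29 ± 0.18 (log2, SE), 2.44-fold lower in Col-0, with an adjusted p of 1.11e-05. AT1G07373, at chr1:17392374-17393026 on the minus strand, was at 2.61, 3.33 and 5.58 CPM in Col-0 and 7.25, 6.91 and 7.03 CPM in tpst. It was 1.82-fold lower in Col-0 (log2 -0.86 ± 0.21, adjusted p = 0.00284). PSK left both without a call, with log2 changes from -0.08 to 0.27 at the 2 doses.

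The nearest protein-coding gene of AT1G07367 is AT1G47400, on the same strand with its end 2504 bases before AT1G07367 begins. AT1G47395 lies next to it on the far side. Both encode proteins that the annotation calls uncharacterized. AT1G47400 was at 8.37, 9.51 and 10.4 CPM in Col-0 and 19.7, 15.6 and 21.3 CPM in tpst (log2 -0.99 ± 0.14, adjusted p = 2.36e-05). AT1G47395 was at 13.0, 13.4 and 21.6 CPM against 30.5, 22.2 and 29.9 CPM (log2 -0.77 ± 0.22, adjusted p = 0.0273). All 4 genes were therefore lower in Col-0, and the Col-0 libraries lay below all 3 tpst libraries for each. AT1G47410, on the other side of AT1G07373, had a log2 change of 0.27 ± 0.19 and was not called. These neighbours were looked at after the values of AT1G07367 had been seen.

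The sequence of AT1G07367 resembles the coding end of AT1G47400. In 1 of its frames 12 of 17 consecutive codons encode the residues that end the AT1G47400 protein, and a stop codon follows at the same place. In the best window of every other lncRNA gene of the 238, at most 6 of the 17 residues matched. Over the annotated exons, this frame holds 38 codons between its stops and no start codon, whereas both AT1G47400 and AT1G47395 have 50 codons. It was read over the 505 exon bases of AT1G07367, without the few bases annotated between its exons. Whether a start codon precedes the stretch when those bases are kept was not examined. The stretches below are shown because they show this resemblance between the lncRNA gene and the neighbours that were lower with it. Each is the last 54 bases of the frame, stop codon included, from the TAIR10.1 genome by RefSeq coordinates, and capitals mark the codons that encode the same residue in AT1G07367 and in AT1G47400.
AT1G47395, chr1:17383216-17383269, plus strand: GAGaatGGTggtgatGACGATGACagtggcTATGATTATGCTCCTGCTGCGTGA
AT1G47400, chr1:17385917-17385970, plus strand: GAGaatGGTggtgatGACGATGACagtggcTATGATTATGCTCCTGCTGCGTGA
AT1G07367, chr1:17389295-17389348, plus strand: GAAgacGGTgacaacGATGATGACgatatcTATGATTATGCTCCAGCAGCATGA
Over these bases AT1G47395 and AT1G47400 were identical, and AT1G07367 matched 39 of the 54.

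The other genes lower in Col-0 were AT2G05914, AT5G05435, AT1G07167, AT1G07323 and AT4G05685. AT2G05914, at chr2:2263124-2264543, was at 1.39, 1.41 and 1.69 CPM in Col-0 and 3.35, 2.98 and 5.81 CPM in tpst, without overlap (log2 -1.42 ± 0.27, 2.67-fold, adjusted p = 0.000194). Translated on its own strand it resembles AT4G29200, annotated as a beta-galactosidase related protein, with 180 of 438 aligned residues identical, while its longest intact frame has 141 codons. Its nearest protein-coding gene, AT2G05915 on the opposite strand, had no count in any library.

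AT1G07323 fell least and was measured best, at 22.9, 27.6 and 24.2 CPM in Col-0 against 34.0, 30.9 and 30.5 CPM (log2 -0.35 ± 0.08, adjusted p = 0.00164). Its neighbour WPP2, which encodes a nuclear envelope protein, had a log2 change of -0.01 ± 0.08. AT1G07167, at chr1:16416062-16416771, was at 4.54, 4.52 and 4.95 CPM against 7.38, 6.66 and 6.22 CPM (log2 -0.53 ± 0.15, adjusted p = 0.00820). It overlaps AT1G43605 by 39 bases on the opposite strand, and that uncharacterized gene was lower in Col-0 too (log2 -0.44, adjusted p = 0.0292).

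AT5G05435 and AT4G05685 were near the threshold. AT5G05435, antisense to the RNA-binding protein gene AT5G05430 (log2 -0.02), was at 2.38, 2.56 and 1.76 CPM against 3.30, 4.91 and 2.88 CPM (log2 -0.74, adjusted p = 0.0434). Its call was lost in 7 of the 12 fits that left out 1 library, those without Col-0 replicate 1 or 3, tpst replicate 1 or 2, 100 nM replicate 2, or 1 µM replicate 2 or 3, where the adjusted p was 0.0504 to 0.289, and with DESeq2 (adjusted p = 0.0569). AT4G05685, inside GRF1, a 14-3-3 protein gene, was at 3.78, 2.52 and 2.32 CPM against 5.32, 4.87 and 3.29 CPM, so that the groups overlapped (log2 -0.66, adjusted p = 0.0311). Without Col-0 replicate 2 or 3, or tpst replicate 1 or 2, its adjusted p was 0.105 to 0.158, and in a fit of the 6 libraries alone 0.0582.

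Among the genes higher in Col-0, AT2G06995 had the smallest adjusted p. It lies at chr2:7633214-7634069 and shares no exon base with another gene. It was at 3.24, 3.03 and 5.13 CPM in Col-0 and at 0.275, 0.654 and 0.910 CPM in untreated tpst, 6.22-fold higher in Col-0 (log2 2.64 ± 0.40, adjusted p = 1.46e-05). The 6 PSK libraries ran from 0.138 to 0.847 CPM, and neither dose was called (log2 -1.18 ± 0.55 and -0.15 ± 0.51). Its end lies 57 bases from that of the convergent gene TRM26 (AT2G17550), annotated as an RB1-inducible coiled-coil protein. TRM26 was at 12.3, 14.7 and 13.6 CPM in Col-0 and 8.48, 11.8 and 8.49 CPM in tpst (log2 0.49 ± 0.13, adjusted p = 0.00475).

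The remaining genes higher in Col-0 were less firmly measured, apart from AT3G06355, which is described with the PSK results. AT2G26355, which overlaps a mitochondrial carrier gene by 20 bases, was at 9.09, 7.76 and 5.73 CPM in Col-0 and 5.18, 5.6 and 3.34 CPM in tpst (log2 0.66 ± 0.20, adjusted p = 0.0114). Without Col-0 replicate 1 or tpst replicate 3 its adjusted p was 0.0840 or 0.0940. AT2G08220, next to ABCG3, a transporter gene, was at 0.675, 1.15 and 1.24 CPM against 0.321, 0.450 and 0.404 CPM (log2 1.37 ± 0.45, adjusted p = 0.0221). Without Col-0 replicate 2 or 3, or tpst replicate 1 or 3, it was not called (adjusted p 0.0593 to 0.0881).

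AT2G47895 and AT2G08820 were called from few counts. AT2G08820 is outside the rule for named genes and was added after its values were seen. It had 8, 20 and 11 counts in Col-0 and 0, 3 and 1 in tpst (log2 3.05 ± 0.86, adjusted p = 0.00856). The call was lost without Col-0 replicate 2 (adjusted p = 0.0556) or tpst replicate 1 (adjusted p = 0.0522). AT2G08820 reached the count minimum in exactly 3 libraries. Col-0 replicates 2 and 3 were among them, and no untreated tpst library was. It thus passed the rule in part through the group in which it was called higher. In the fit of the 6 libraries alone AT2G08820 was not tested. AT2G47895 had 11, 16 and 13 counts against 3, 1 and 4 (log2 2.13 ± 0.66, adjusted p = 0.0156). It overlaps COL13, a gene of the CONSTANS-like zinc finger family, on the same strand, with 39.9% of its exon bases shared. COL13 was higher in Col-0 as well (log2 0.77, adjusted p = 1.27e-06). Without Col-0 replicate 2 or tpst replicate 2 the adjusted p of AT2G47895 was 0.0557 or 0.0935.

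The plot of 6 of these genes shows every library. Root and shoot markers moved with the same 2 groups, by the values given above, and their part in these differences was not tested.

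**Figure D3:**
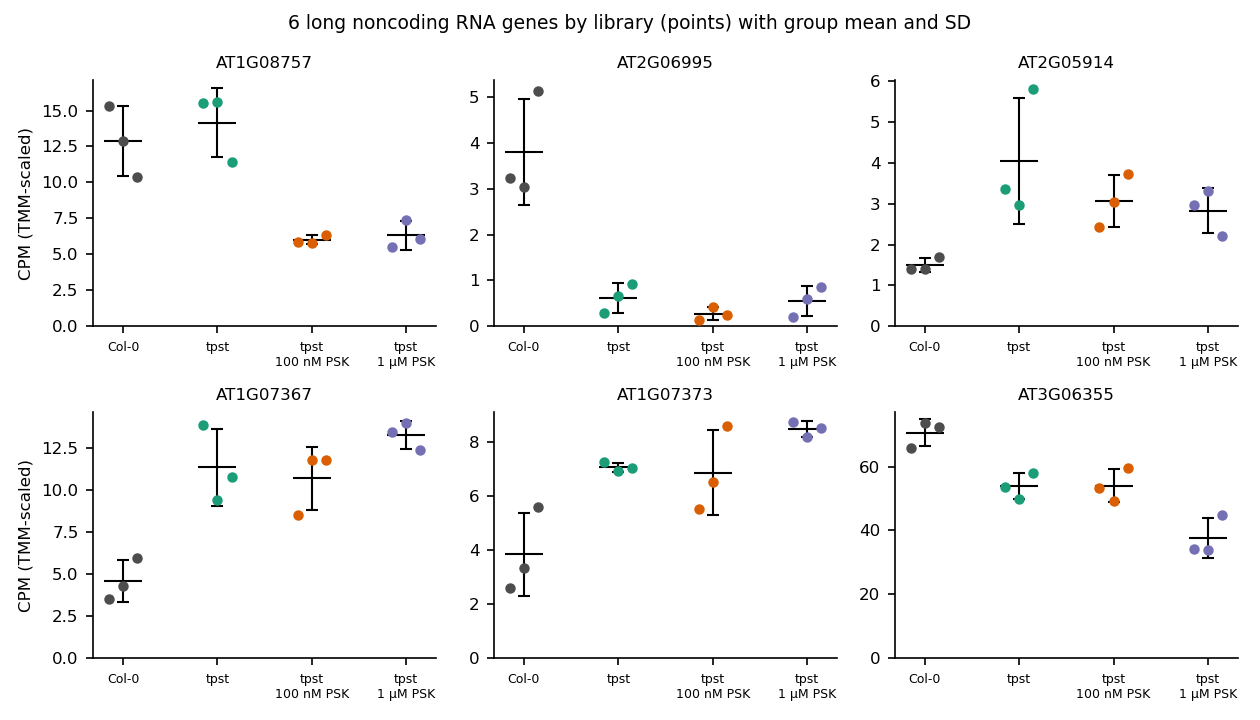
TMM-scaled CPM (y axis) of 6 lncRNA genes in the 3 libraries of each group (points), with the group mean and SD (bars). AT1G08757 is lower in all 6 PSK libraries, AT2G06995 is highest in the 3 Col-0 libraries, AT2G05914, AT1G07367 and AT1G07373 are lower in Col-0 than in untreated tpst, and AT3G06355 is lowest with 1 µM PSK.

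The second comparison, tpst given 100 nM PSK against untreated tpst, asks what the hormone changes within 5 h in seedlings that lack it. A single lncRNA gene was called, AT1G08757, which was 2.36-fold lower. That is 1 of 229 genes, lower and past 2-fold, where 3.2% of all genes were called, 1.29% higher, 1.91% lower and 0.741% past 2-fold. An unadjusted p under 0.05 was found for 8 of the 229 (3.49%) and 12.6% of all genes, and libraries that did not overlap for 30 (13.1%) and 19.8%. The median change was -0.02 on the log2 scale over the 229. AT1G08757 lies at chr1:24339371-24340154 on the plus strand, in a single exon of 784 bases that no other annotated exon shares. It was at 15.5, 15.6 and 11.4 CPM in untreated tpst and at 5.88, 5.78 and 6.37 CPM with 100 nM PSK. All treated libraries lay below all untreated ones, and the gene fell by 1.24 on the log2 scale (SE 0.15, 2.36-fold, adjusted p = 7.73e-06).

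The same gene fell with 1 µM PSK, to 5.47, 7.40 and 6.04 CPM (log2 -1.18 ± 0.16, adjusted p = 1.41e-05). Both doses are set against the same 3 untreated libraries. Between the doses the change was 0.06 ± 0.17. In Col-0 the gene was at 15.3, 12.9 and 10.4 CPM, which overlapped untreated tpst (log2 -0.14 ± 0.14, adjusted p = 0.504). Its call held at both doses in all 19 alternative fits, with an adjusted p of at most 0.000390.

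The neighbourhood of AT1G08757 holds FT, the flowering signal gene, which had no count in any library, and 3 uncharacterized protein-coding genes that had enough counts to test. These neighbours were chosen after the value of AT1G08757 had been seen. The nearest, AT1G65481, is convergent with its end 582 bases away. It was at 1.10, 0.736 and 0.354 CPM in untreated tpst, 0.184, 0.601 and 0.245 CPM with 100 nM PSK and 0.307, 0.361 and 0.371 CPM with 1 µM PSK, which did not pass the test (log2 -1.10 ± 0.51 and -1.08 ± 0.52). In Col-0 AT1G65481 was at 1.57, 1.62 and 2.32 CPM and was called higher than in untreated tpst (log2 1.32 ± 0.41, adjusted p = 0.0175). AT1G08757 was not called in that comparison. AT1G65486, 9244 bases beyond AT1G08757, did pass with PSK. It was at 9.26, 5.40 and 8.29 CPM in untreated tpst and between 2.65 and 3.79 CPM in the 6 PSK libraries, and it fell by 1.14 ± 0.20 (adjusted p = 0.000888) and 1.24 ± 0.21 (adjusted p = 0.000283) on the log2 scale. AT1G65484, which lies between them, was below 0.6 CPM everywhere and was not called.

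**Figure D4:**
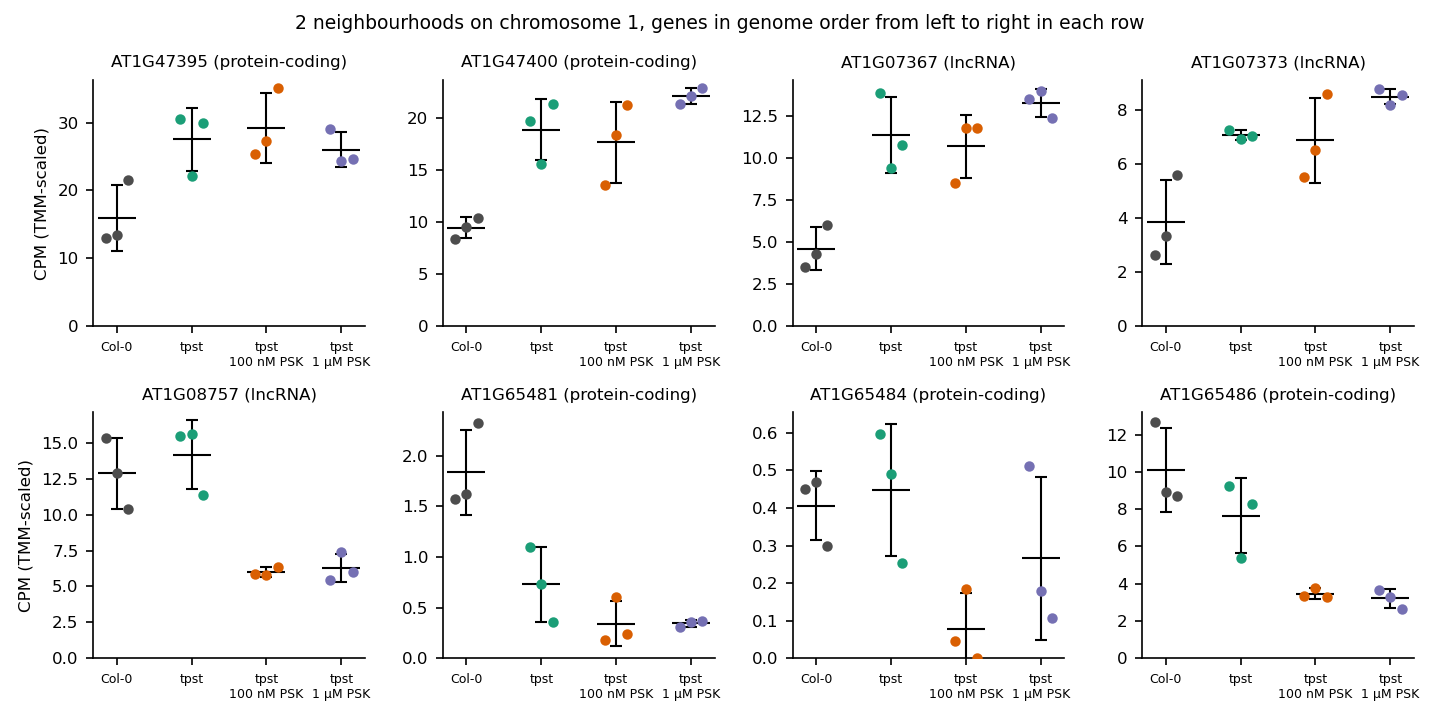
TMM-scaled CPM (y axis) by library (points) with group mean and SD (bars) for 2 neighbourhoods of chromosome 1. In the upper row AT1G47395, AT1G47400, AT1G07367 and AT1G07373 are each lower in the 3 Col-0 libraries than in untreated tpst, and in the lower row AT1G08757 and AT1G65486 are lower in the 6 PSK libraries than in untreated tpst.

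The start of AT1G08757 is printed because this was the only lncRNA gene called at both doses. The window holds 250 bases before and 50 after the annotated start, at chr1:24339121-24339420 on the plus strand of TAIR10.1. The motifs searched on both strands were the W-box in the study's spelling, TTGACT or TTGACA, a sequence bound by WRKY transcription factors of the plant defense response, and the G-box CACGTG. Capitals mark the 3 matches to the W-box, which all read on the opposite strand and do not overlap. The last of them begins 29 bases after the start.
AT1G08757: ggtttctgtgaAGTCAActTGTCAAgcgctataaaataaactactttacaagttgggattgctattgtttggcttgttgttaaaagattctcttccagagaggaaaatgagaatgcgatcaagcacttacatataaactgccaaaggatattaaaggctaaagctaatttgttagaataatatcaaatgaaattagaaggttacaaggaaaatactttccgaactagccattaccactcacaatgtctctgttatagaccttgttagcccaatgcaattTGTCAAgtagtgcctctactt
At least 1 W-box was present in 36.9% of the 32546 windows of this length around the genes of the table. The same held for 33.6% of those of the 238 lncRNA genes. The share of windows with 3 matches was not determined. With the other common spelling, TTGACC or TTGACT, the shares were 31.8% and 29.0%, and the window above held 1 match. A G-box was present in 7.11% and 4.62%.

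The third comparison, 1 µM PSK against untreated tpst, asks the same at the higher dose. Beside AT1G08757, AT3G06355 and AT5G02425 were lower and AT2G08435 and AT2G47895 were higher. These were 5 of the 229 genes, 4 of them past 2-fold, and over all genes 6.45% were called, 3% higher, 3.45% lower and 1.21% past 2-fold. An unadjusted p under 0.05 was found for 17 of the 229 (7.42%) and 18.9% of all genes, and libraries that did not overlap for 34 (14.8%) and 26.6%. The median change was -0.03. The count of 5 was 2 without tpst replicate 1, without tpst replicate 2 or without 1 µM replicate 1, and 3 without tpst replicate 3 or 1 µM replicate 3. AT1G08757 and AT3G06355 were called in each of the 19 alternative fits.

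AT3G06355 was the lncRNA gene with the most counts, 14415 over all libraries. It was at 53.7, 49.8 and 57.9 CPM in untreated tpst, 53.4, 49.2 and 59.6 CPM with 100 nM PSK and 34.1, 33.9 and 44.9 CPM with 1 µM PSK. It was 1.43-fold lower at 1 µM than in untreated tpst (log2 -0.51 ± 0.10, adjusted p = 0.00425). In Col-0 it was at 65.7, 73.6 and 72.4 CPM, above every tpst library (log2 0.39 ± 0.10, adjusted p = 0.00537). Its position bears on these values. AT3G06355 spans chr3:14199575-14200076, begins 90 bases after the 18S rRNA gene AT3G41768 and contains the 5.8S rRNA gene AT3G41979, which lies at chr3:14199753-14199916 and had no count. A copy 99.4% identical over 501 bases lies at chr2:5604-6104, where the rRNA gene AT2G01020 is annotated.

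The 18S gene fell more steeply in the same libraries. It was at 3079, 2895 and 2935 CPM in untreated tpst and at 557, 507 and 458 CPM with 1 µM PSK (log2 -2.55 ± 0.22, adjusted p = 0.000206). Of the 9 rRNA rows tested, 7 were lower at 1 µM, those of the chloroplast and mitochondria among them. Between Col-0 and untreated tpst the 18S gene was not called (log2 -0.35 ± 0.21). Of the same 9 rows, AT2G01010 and AT2G01020 were called there, both lower in Col-0, where AT3G06355 was higher. Their log2 changes were -0.75 ± 0.16 (adjusted p = 0.000926) and -0.62 ± 0.15 (adjusted p = 0.00266). Leaving the rRNA rows out before scaling changed the value of AT3G06355 at 1 µM to -0.51 with an adjusted p of 0.00427. Poly(A) selection depletes rRNA, and the part of rRNA carried over in the level of AT3G06355 was not tested.

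AT2G08435 rose and AT5G02425 fell at 1 µM, both at low levels. AT2G08435, at chr2:13383986-13385739, lies wholly inside AT2G31390, a carbohydrate kinase gene on the opposite strand, with 6.26% of its exon bases shared. It was at 0.825, 0.736 and 0.657 CPM in untreated tpst and 2.20, 1.20 and 1.75 CPM with 1 µM PSK (log2 1.22 ± 0.35, adjusted p = 0.0340). It was at 1.38, 1.34 and 1.14 CPM with 100 nM PSK (log2 0.79 ± 0.35, adjusted p = 0.333) and at 1.71, 1.11 and 1.80 CPM in Col-0 (log2 1.05 ± 0.35, adjusted p = 0.0234). The 3 untreated tpst libraries were the lowest of the 12. The kinase gene around it was called in none of the 4 comparisons. The call at 1 µM was lost without any of the 3 untreated tpst libraries and without 1 µM replicate 1 or 3 (adjusted p 0.0692 to 0.166). The call in Col-0 was lost without Col-0 replicate 1 or 3 or tpst replicate 2 or 3 (adjusted p 0.0586 to 0.0818).

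AT2G47895 also rose at 1 µM, with 19, 15 and 6 counts at 1 µM PSK against 3, 1 and 4 in untreated tpst (log2 2.52 ± 0.65, adjusted p = 0.0162). COL13, which it overlaps, had a change of 0.09 ± 0.10 there. The call was lost without tpst replicate 1 or 2 or 1 µM replicate 1 or 2 (adjusted p 0.0581 to 0.118). In the fit of the 6 libraries alone AT2G47895 was not tested at 1 µM. AT5G02425, at chr5:5045301-5045978, was at 1.24, 1.06 and 1.11 CPM in untreated tpst and 0.409, 0.601 and 0.318 CPM with 1 µM PSK (log2 -1.36 ± 0.41, adjusted p = 0.0433). It has 8 copies of 91.4% to 93.2% identity on chromosome 2 between 13503399 and 13506072, so the counting may have split its fragments among them. Its call was lost without any untreated tpst library, Col-0 replicate 1 or 2, 100 nM replicate 3, or 1 µM replicate 1 or 3 (adjusted p 0.0514 to 0.169). It was also lost with a replicate block (adjusted p = 0.0559) and with no filter beyond 1 count (adjusted p = 0.0583).

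Between the doses, 1 µM against 100 nM PSK, 1 of 229 lncRNA genes was called, AT3G06355, lower at 1 µM (log2 -0.52 ± 0.10, adjusted p = 0.0365). Over all genes 0.239% were called, 0.127% higher and 0.112% lower, and 0.0634% past 2-fold, which no lncRNA gene was. An unadjusted p under 0.05 was found for 14 of the 229 (6.11%) and 10.2% of all genes, and libraries that did not overlap for 27 (11.8%) and 18.2%. The call was lost without tpst replicate 1, 100 nM replicate 1 or 3, or 1 µM replicate 1 or 2, with an adjusted p of 0.0728 to 0.188. The other changes did not pass the test, and the median SE over the 229 genes was 0.48.

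Changes of lncRNA genes were then set beside those of their nearest protein-coding gene. Both genes were tested in 150 pairs, and 79 of the 229 lncRNA genes had a neighbour with too few counts. In Col-0 against tpst 48 of the 150 neighbours were called (32.0%). Of the 13 called lncRNA genes with a tested neighbour, 5 had a called neighbour, and all 5 pairs moved the same way. They were AT1G07367 with AT1G47400, AT2G47895 with COL13, AT2G06995 with TRM26, AT1G07167 with AT1G43605 and AT4G05685 with GRF1. GRF1 moved least, by -0.16 on the log2 scale. No pair had both genes called in a PSK comparison.

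Across the 150 pairs the log2 changes were weakly related in Col-0 against tpst, with a Pearson r of 0.16 and a Spearman rho of 0.14. In the 91 pairs overlapping on opposite strands r was 0.31 and rho 0.24, and 62.6% had the same sign. In the 56 pairs without overlap r was 0.06 and rho -0.05, with 46.4% of the same sign. For protein-coding genes and their nearest protein-coding gene r was 0.09 over 15843 pairs, 0.04 over the 3724 overlapping on opposite strands and 0.10 over the 11457 without overlap. With 100 nM and 1 µM PSK r over the 150 lncRNA pairs was 0.05 and 0.14, and over the 91 overlapping on opposite strands 0.18 and 0.16. Between the doses it was 0.00 over all and -0.07 over the 91. All pairs come from the same 12 libraries and genes are not replicates, so these values are descriptions.

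**Figure D5:**
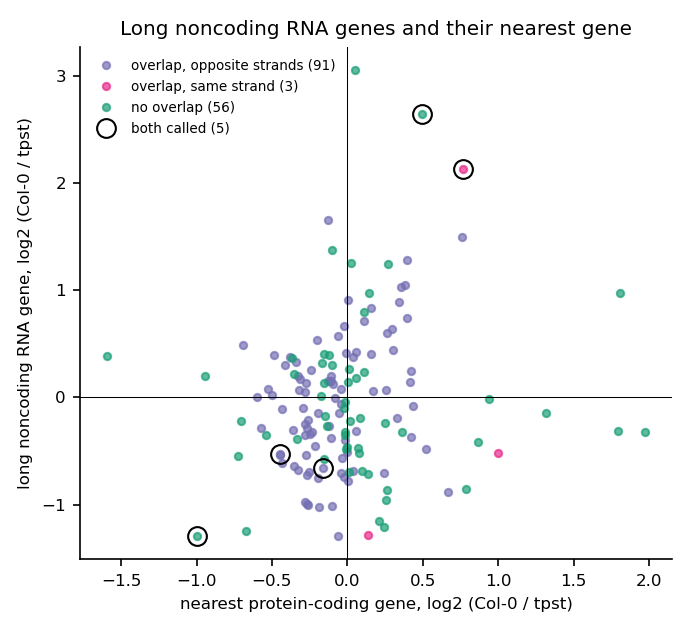
Log2 change of each lncRNA gene (y axis) against that of its nearest protein-coding gene (x axis) in Col-0 against tpst, for the 150 pairs with both genes tested, coloured by their position. The 5 pairs with both genes called (circled) lie in the quadrants where both moved the same way.

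Well-known noncoding transcripts of Arabidopsis are nearly all filed under other classes in this table. Of 18 on a list of such genes, only FLORE carries the lncRNA class, and it had no count, while 12 are classed as ncRNA. Of the 11 tested, 4 were called in Col-0 against tpst, where the table's background is 27.9%. ASCO (AT1G67105), a regulator of alternative splicing, was the most changed, at 4.72, 6.06 and 5.55 CPM in Col-0 and 21.9, 21.0 and 20.8 CPM in tpst (log2 -1.96 ± 0.12, adjusted p = 4.66e-12). GUT15 and APOLO (AT2G34655) were lower in Col-0 too (log2 -0.35 and -1.74), and AT4, a decoy of a microRNA in phosphate starvation, was higher (log2 0.66). With PSK, TAS4 (AT3G25795), a precursor of trans-acting small RNAs, rose from 0.321, 0.491 and 0.607 CPM to 1.52, 1.11 and 1.23 CPM at 100 nM (log2 1.44 ± 0.40, adjusted p = 0.0428). At 1 µM it reached 1.59, 1.92 and 1.43 CPM (log2 1.79 ± 0.40, adjusted p = 0.00471). TAS1B fell at 1 µM (log2 -0.51, adjusted p = 0.0425).

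Protein-coding genes of related pathways are given against the share of all genes called, which was 27.9% in Col-0 against tpst, 3.2% at 100 nM and 6.45% at 1 µM. Of 9 genes of the trans-acting small RNA pathway and its targets, AGO7 and SGS3 were lower in Col-0 than in tpst (log2 -0.31 and -0.26), none was called at 100 nM and ARF3 rose at 1 µM (log2 0.28). Of 7 phosphate starvation genes 4 were higher in Col-0, PHO1, PHT1;1, SPX1 and MGD3. PHT1;1, a phosphate transporter, fell with PSK by 1.56 and 1.76 on the log2 scale at the 2 doses. Of 3 marneral cluster genes 2 were tested, CYP705A12 and CYP71A16, and both were higher in Col-0 and at 100 nM. At 1 µM neither was called, with log2 changes of 1.12 and 0.82. Of 11 genes of nuclear and cytoplasmic RNA decay, SAL1 (also FRY1) alone was called, lower in Col-0 (log2 -0.40), and none with PSK.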

How the data were processed

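RNA of 12 seedling libraries was read as 150-bp pairs. Per the labels and the methods, the authors trimmed reads with fastp, aligned them to TAIR10 with HISAT2 2.0.5 and made the deposited integer counts per gene with featureCounts 1.5.0-p3. The deposited FPKM values were computed by the authors from those counts, and here they served only for levels per length. The strand setting and the treatment of multi-mapping fragments are not given in the sources used here. Columns of the authors' own comparisons were not used.

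Counts were fitted in R 4.3.3 with edgeR 4.0.16 (filterByExpr, TMM factors 0.9744 to 1.0746, robust quasi-likelihood test, 1 term per group over 12 libraries, 8 residual degrees of freedom). Tests were two-sided. CPM are TMM-scaled. With 3 libraries a group, exact permutation allows no p under 0.1, so p-values rest on the model across genes. The fit was tested on simulated data. Alternatives were DESeq2 1.42.0, RLE scaling, other filters, the 6 libraries compared alone, a replicate block, each library left out and, chosen after seeing the data, rRNA rows left out.

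The nearest protein-coding gene was the one with the smallest distance between ends, any overlap counting first. Coordinates and sequences came from RefSeq TAIR10.1, whose starts and ends equal those of the table for 99.95% of the genes on chromosomes 1 to 5. Copies were sought with BLAST+ 2.17.0. Named genes were a list of known noncoding RNAs, up to 8 called lncRNA genes per direction and comparison with the largest change, libraries that do not overlap and at least 1 CPM in a group, called genes with fewer than 3 counts in a group, the 8 highest by FPKM, the neighbours of these, and pairs of neighbours both called. The members and lists were chosen with earlier results of these data known. 1 gene is not reported here.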

Additional observations from a re-analysis of the deposited data

How the results depend on the processing

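The counts of lncRNA genes called (14, 1, 5 and 1) stayed within 1.5 times under DESeq2, RLE scaling, both other filters, the 6 libraries compared and without rRNA rows. Leaving out 1 library at a time gave 11 to 18 in Col-0 against tpst, 1 to 1 at 100 nM, 2 to 6 at 1 µM and 0 to 1 between the doses. Over the genes tested, same-numbered libraries correlated between -0.081 and 0.060 in their deviations, and the main fit held no replicate term. Such correlations cannot show whether the samples were paired. For AT3G06355 between the doses the adjusted p was 0.0365 in the main fit and 0.00035 with a replicate block. With a replicate block the counts were 14, 1, 4 and 1, the gene lost at 1 µM being AT5G02425. The log2 changes of the called genes were called again in 346 of their alternative fits, missed the threshold in 51 and changed direction in none. The share of counts moved from 0.0464% to 0.0410% without AT3G06355. The median level was 0 FPKM over every lncRNA gene of the table. The Pearson r of pairs was 0.0646 without overlap, 0.206 by start sites and 0.270 at 1 CPM or more in Col-0 against tpst. At 100 nM it was -0.0226 without overlap and -0.134 at 1 CPM or more, at 1 µM 0.117 without overlap and 0.169 by start sites, and between the doses 0.0537 and -0.0452. Most lncRNA genes had few counts per library, and precision covers counting error and the spread between 3 replicates only.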
